A study of Mus musculus with 4 samples.

Results

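The 30 tetraspanin genes measured on a mouse expression array were compared between Tc9 and Tc1 cells. Members were the genes whose annotated symbol was Tspan followed by a number, together with Cd9, Cd37, Cd53, Cd63, Cd81, Cd82, Cd151, Upk1a, Upk1b, Prph2 and Rom1, which made 30 of the 19505 genes tested. Each was represented by 1 probe set, a group of probes for one gene. RNA came from cultured mouse T cells held under a Tc9 cytokine condition (2 arrays) or under a Tc1 cytokine condition (2 arrays), numbered 1 and 2 in each group, and the series asked how gene expression differs between these cells. The labels give no mouse strain, genotype, sex, age, cytokine or time in culture, and none states that the arrays of a group came from separate cultures or animals. The p-values below therefore rest on the spread between these arrays, which may be technical. The test also draws on the spread of other genes of like intensity. Its p-values and intervals therefore do not measure each gene's own spread alone, and the number of arrays limits their precision.

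Tetraspanins are small membrane proteins that cross the membrane repeatedly and carry a large extracellular loop. They act as organisers: each binds particular partners, such as integrins, immunoglobulin-fold receptors or proteases, and gathers them into microdomains of the surface or of endosomes. In T cells, members such as CD81, CD82, CD37, CD53 and CD9 modulate adhesion, costimulation and signalling from the antigen receptor, and CD63, CD9 and CD81 are common marks of exosomes. One subfamily, the TspanC8 proteins, escorts the protease ADAM10 to the cell surface and steers its choice of substrate.

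In Tc9 cells Tspan9 and Tspan14 rose, by about 3.07-fold and 2.16-fold over Tc1 cells, and no other member passed the test. Cd81 was 1.79-fold higher and Tspan4 lower, without passing the test. The Tc9 signals of Tspan4 were under the negative controls. Its fold of at least 1.56 is a bound on the group means and makes no allowance for the spread between arrays. Cd9, Cd82, Tspan31 and Tspan5 had log2 changes between -0.10 and 0.15. Of the 30 members, 17 gave no signal above the negative controls in either cell type, among them Cd63 and Cd151.

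Promoter windows are shown first for Tspan9 and Tspan14, the 2 members that rose, and for Cd81 and Tspan4, the members with the next largest differences. Each runs 5′ to 3′ on the gene's strand from 250 bases before to 50 bases after its outermost annotated start (RefSeq, GRCm38.p6). The sites are chr6:128143529-128143828 on the minus strand for Tspan9, chr14:40966847-40967146 on the minus strand for Tspan14, chr7:143052500-143052799 on the plus strand for Cd81 and chr7:141474986-141475285 on the plus strand for Tspan4. RefSeq lists 4, 2, 1 and 2 start sites for these genes in that order, and which of them the cells used was not measured. Capitals mark CAGAC or its reverse complement GTCTG, the core letters bound by Smad proteins, which carry signals of TGF-beta, a cytokine often used to derive T cells that make interleukin 9.
Tspan9: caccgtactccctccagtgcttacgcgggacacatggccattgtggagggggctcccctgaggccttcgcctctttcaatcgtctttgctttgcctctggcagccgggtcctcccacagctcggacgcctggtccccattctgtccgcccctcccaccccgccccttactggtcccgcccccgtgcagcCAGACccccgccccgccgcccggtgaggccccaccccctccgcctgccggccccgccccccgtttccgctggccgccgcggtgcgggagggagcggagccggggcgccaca
Tspan14: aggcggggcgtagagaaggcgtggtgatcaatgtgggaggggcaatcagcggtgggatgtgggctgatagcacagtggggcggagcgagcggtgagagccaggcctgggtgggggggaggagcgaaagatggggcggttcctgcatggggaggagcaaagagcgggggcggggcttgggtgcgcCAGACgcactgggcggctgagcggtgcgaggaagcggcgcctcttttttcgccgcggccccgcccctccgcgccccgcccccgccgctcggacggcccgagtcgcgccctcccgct
Cd81: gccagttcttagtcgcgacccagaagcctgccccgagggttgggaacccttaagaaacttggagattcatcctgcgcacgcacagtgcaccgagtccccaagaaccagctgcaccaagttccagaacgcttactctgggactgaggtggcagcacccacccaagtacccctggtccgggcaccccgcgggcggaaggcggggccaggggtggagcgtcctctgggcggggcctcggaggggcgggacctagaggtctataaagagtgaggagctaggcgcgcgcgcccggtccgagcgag
Tspan4: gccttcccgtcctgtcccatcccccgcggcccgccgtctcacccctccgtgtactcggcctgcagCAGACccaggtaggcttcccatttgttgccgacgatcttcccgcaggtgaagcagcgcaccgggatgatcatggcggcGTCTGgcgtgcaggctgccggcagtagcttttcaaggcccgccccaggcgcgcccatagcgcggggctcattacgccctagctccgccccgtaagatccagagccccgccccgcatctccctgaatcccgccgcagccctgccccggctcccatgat

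CAGAC, read on both strands, occurred once in the Tspan9 window and once in that of Tspan14, at 2 places in that of Tspan4 and at 0 in that of Cd81. It stood in 16 of the 28 member windows (57.1%), a share near the 49.7% of windows of all 27025 genes. The GC box GGGCGG, a site of Sp-family factors typical of CpG-rich promoters, was found at 6 positions each in the Tspan9 and Tspan14 windows and at 3 each in those of Cd81 and Tspan4. It occurred in 14 of the 28 member windows, against 35.9% of all windows. The STAT spacing TTCNNNGAA was absent from all 4 windows (1 of 28 members, against 8.42% of all), as was the T-box core TCACAC (0 of 28, against 14.4% of all). These matches describe letters in a fixed window and do not show binding. A window can also hold sequence of a neighbouring gene. Polr2l lies between Cd151 and Tspan4, and the 2 CAGAC matches in the Tspan4 window may fall within it. They are therefore not assigned to Tspan4. Tspan18 and Upk1b had no entry.

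Values are intensities in arbitrary units, quantile normalized so that the 4 arrays share 1 distribution. Log2 changes are Tc9 minus Tc1 after adding 16, which understates the change of dim genes, and were tested with limma across all 19505 genes with p-values adjusted by Benjamini-Hochberg and called under 0.05. The arrays numbered 1 had lower deposited intensities than those numbered 2 in both groups, with medians of 37.1 and 37.9 against 57.1 and 57.3. Differences are therefore also given within each number, where 1 Tc9 and 1 Tc1 array stand side by side. The T cell genes Cd3e, Cd3d, Cd3g, Cd8a and Cd8b1 lay above the negative controls on all 4 arrays, whereas Cd4 lay above them on none. Among the markers of other cells, 0 of 7 myeloid and dendritic, 0 of 3 NK and 0 of 2 CD4 T cell genes did so on any array. One gene exceeded the controls in each remaining list: Cd79b of 5 B cell genes on 1 Tc9 array, Gp9 of 5 platelet and erythroid genes on 1 Tc1 array, and Epcam of 5 epithelial genes on 3 arrays.

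A member was called above background on an array when its deposited intensity exceeded the 95th percentile of that array's 5222 negative control probe sets. On all 4 arrays 12 members did so: Cd9, Cd37, Cd53, Cd81, Cd82, Tspan3, Tspan5, Tspan9, Tspan13, Tspan14, Tspan31 and Tspan32. Tspan4 did so on the 2 Tc1 arrays and on 0 Tc9 arrays. The other 17 did so on none, and their changes could not be measured reliably. The leukocyte proteins Cd37, Cd53 and Cd82 were well clear of the controls, as the plot of signal against negative controls shows. The photoreceptor proteins Prph2 and Rom1, which shape the discs of the outer segment, and the urothelial plaque proteins Upk1a and Upk1b stayed between 8.71% and 51.1% of that level. Tspan12, which assists Norrin signalling through Frizzled4 in retinal vessels, Tspan1, Tspan8 and Tspan18 were also far under it.

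**Figure D1:**
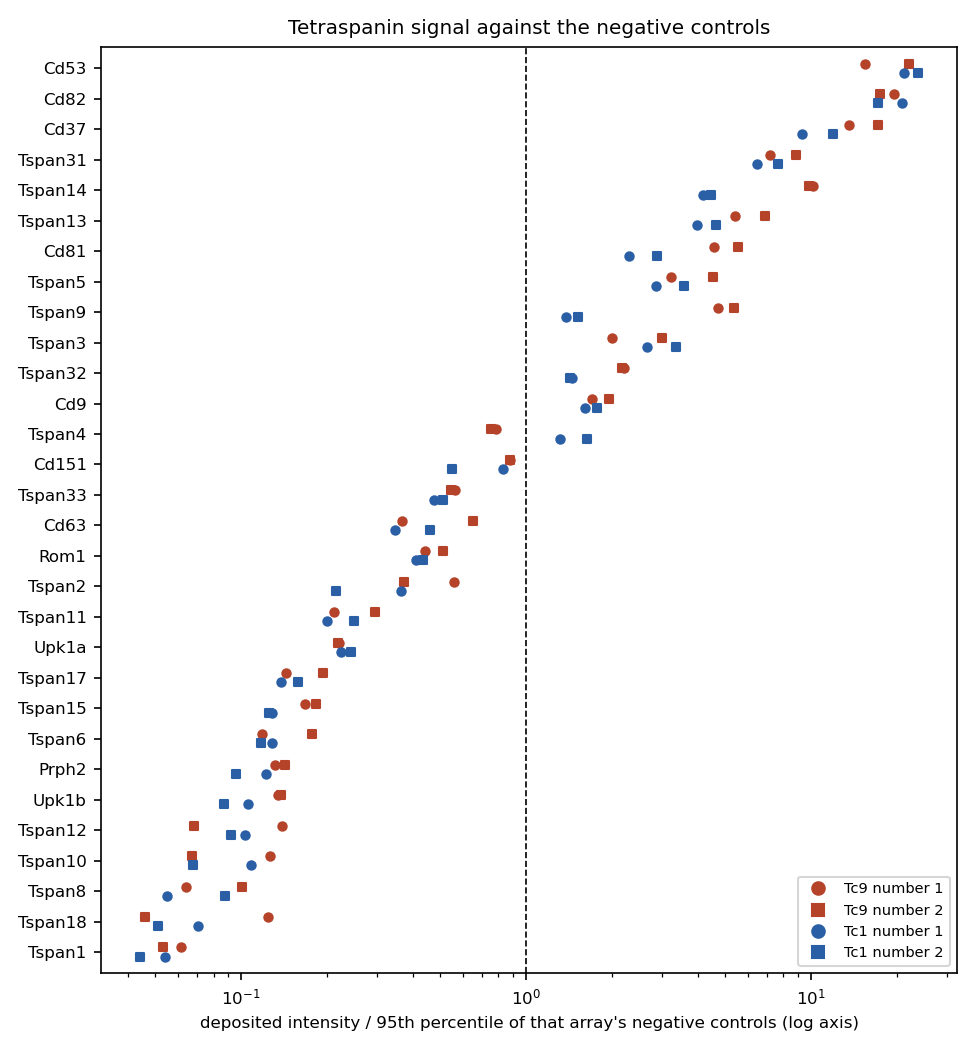
Deposited intensity of each of the 30 tetraspanins divided by the 95th percentile of the negative controls of the same array, on a log axis, with the dashed line at 1 (red Tc9, blue Tc1; circle number 1, square number 2). 12 members lie right of the line on all 4 arrays, Tspan4 with its Tc1 arrays only, and 17 on none.

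Of the 30 members, 2 passed the test, both higher in Tc9 cells, or 6.67% of the family. Over all genes tested 0.564% passed, 0.385% higher and 0.179% lower in Tc9. No member was called lower by limma, and at an unadjusted p under 0.05 there were 6 higher members (Tspan9, Tspan14, Cd81, Tspan13, Cd37 and Tspan32) and 1 lower (Tspan4), against 5.28% of all genes in either direction. Both Tc9 arrays lay above both Tc1 arrays for 8 members (26.7%, against 14% of all genes) and below them for 4 (13.3%, against 15.1%), where 29.1% of all genes did one or the other. The 8 were Tspan9, Tspan14, Cd81, Cd37, Tspan32, Tspan13, Tspan15 and Upk1b, and the 4 were Tspan4, Tspan3, Cd9 and Upk1a. Among them Tspan15, Upk1b and Upk1a were above background on no array, and the values of Cd9 were nearly equal. The median log2 change of the family was 0.07 (0.045 and 0.098 within the numbers 1 and 2), against -0.0027 over all genes. Over the 12 members above background on all 4 arrays the median absolute log2 change was 0.39, against 0.14 over the 6354 such genes.

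Tspan9, a tetraspanin of platelets and many other cells, measured 813 and 827 on the Tc9 arrays and 254 and 258 on the Tc1 arrays. The groups stood far apart, and the arrays within each differed by little. In bulk RNA, a change in the share of cells that carry a transcript and a change in its amount per cell cannot be told apart. Its log2 change was 1.62 ± 0.15 (SE, n = 2 per group; limma adjusted p = 0.00705), with 1.62 within number 1 and 1.62 within number 2. Known partners of Tspan9 in platelets include the collagen receptor glycoprotein VI and alpha6 beta1 integrin. Gp6, the glycoprotein VI gene, was above background on 0 arrays, and Itga6, encoding the alpha6 chain, measured 266 and 356 in Tc9 and 223 and 202 in Tc1 cells (log2 change 0.51 ± 0.21, not past the threshold). The 5 measured platelet and erythroid markers summed to 402 and 395 in Tc9 and 453 and 490 in Tc1 cells, with 0 of the 5 above background on the Tc9 arrays and Gp9 alone on 1 Tc1 array. The part of such cells in the Tspan9 result was not tested.

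Tspan14, one of the TspanC8 proteins that carry ADAM10 from the endoplasmic reticulum to the surface, measured 1738 and 1569 in Tc9 cells and 752 and 760 in Tc1 cells. All Tc9 values exceeded all Tc1 values, and the gap between groups was several times that within them. The log2 change was 1.11 ± 0.13 (limma adjusted p = 0.0172), with 1.19 and 1.03 within the numbers 1 and 2. Its call was lost with median centring in place of quantile normalization (limma adjusted p = 0.0507, log2 change 1.05) and without the intensity trend of the variance (0.0748). On the values as deposited both Tspan14 and Tspan9 missed the threshold, at log2 changes of 1.08 and 1.61. Summed intensities of the 7 myeloid and dendritic markers were 362 and 437 in Tc9 and 340 and 306 in Tc1 cells. The sums were higher in Tc9, as Tspan9 and Tspan14 were, but 0 of the 7 were above background on any array. Of the 7, 6 had a positive and 1 a negative log2 change, with a median of 0.29, and 3 had the same sign in both numbers. The median log2 changes of all 7 were -0.010 within number 1 and 0.38 within number 2. Summed B cell markers, at 207 and 297 in Tc9 and 174 and 261 in Tc1 cells, overlapped between groups, with Cd79b alone above background, on 1 Tc9 array. The part of such cells in these results was not tested.

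The other TspanC8 genes did not pass the test. Tspan5 measured 563 and 695 in Tc9 and 523 and 606 in Tc1 cells, with overlapping groups and a log2 change of 0.15 (95% interval -0.26 to 0.56). The interval of Tspan14 ran from 0.80 to 1.42, and the difference between these members was not tested. Tspan10, Tspan15, Tspan17 and Tspan33 were above background on no array, with log2 changes between -0.0076 and 0.19. Adam10 itself, which these proteins escort, measured 1237 and 1441 in Tc9 and 1082 and 1139 in Tc1 cells. Both Tc9 values exceeded both Tc1 values, but the log2 change of 0.26 ± 0.14 missed the threshold (unadjusted p = 0.101).

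Among the 7 tetraspanins known by CD names, Cd81 had the largest log2 change. Cd81, a costimulatory protein of T cells, measured 786 and 854 in Tc9 and 419 and 484 in Tc1 cells. The groups did not overlap, and the log2 change was 0.84 ± 0.16 (0.88 and 0.80 within the numbers), but it missed the threshold (limma adjusted p = 0.106). Leaving out each array in turn gave Cd81 log2 changes from 0.74 to 0.94. Cd37, a leukocyte protein that restrains T cell proliferation in mice, measured 2255 and 2792 in Tc9 and 1599 and 2073 in Tc1 cells, a log2 change of 0.46 (95% interval 0.06 to 0.86). Within each number Cd37 was higher in Tc9, by 0.49 and 0.43. Cd53, another leukocyte tetraspanin, measured 2483 and 3563 in Tc9 and 3500 and 4243 in Tc1 cells, with groups that overlapped. Its log2 change of -0.37 (95% interval -0.82 to 0.07) was -0.49 and -0.25 within the numbers.

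Cd9, found on many cells and required for fusion of the egg with sperm, measured 295 and 297 in Tc9 and 298 and 298 in Tc1 cells. The 4 values were nearly equal. The 95% interval of its log2 change of -0.01 ran from -0.42 to 0.40, a width that draws also on the spread of other genes. Cd82, a metastasis suppressor that also acts in T cell adhesion, measured 3174 and 2836 in Tc9 and 3421 and 3011 in Tc1 cells, with overlapping groups (log2 change -0.10, 95% interval -0.39 to 0.20). Cd151, which binds laminin-binding integrins, measured 146 and 135 in Tc9 and 151 and 97.2 in Tc1 cells and was under the negative control level on all 4 arrays. Cd63, a protein of late endosomes, lytic granules and exosomes, measured 56.3 and 101 in Tc9 and 58.2 and 81.9 in Tc1 cells and was under that level throughout. For Cd151 and Cd63 the 2 Tc1 arrays differed by more than the group means did, and the signs within the numbers were opposite.

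**Figure D2:**
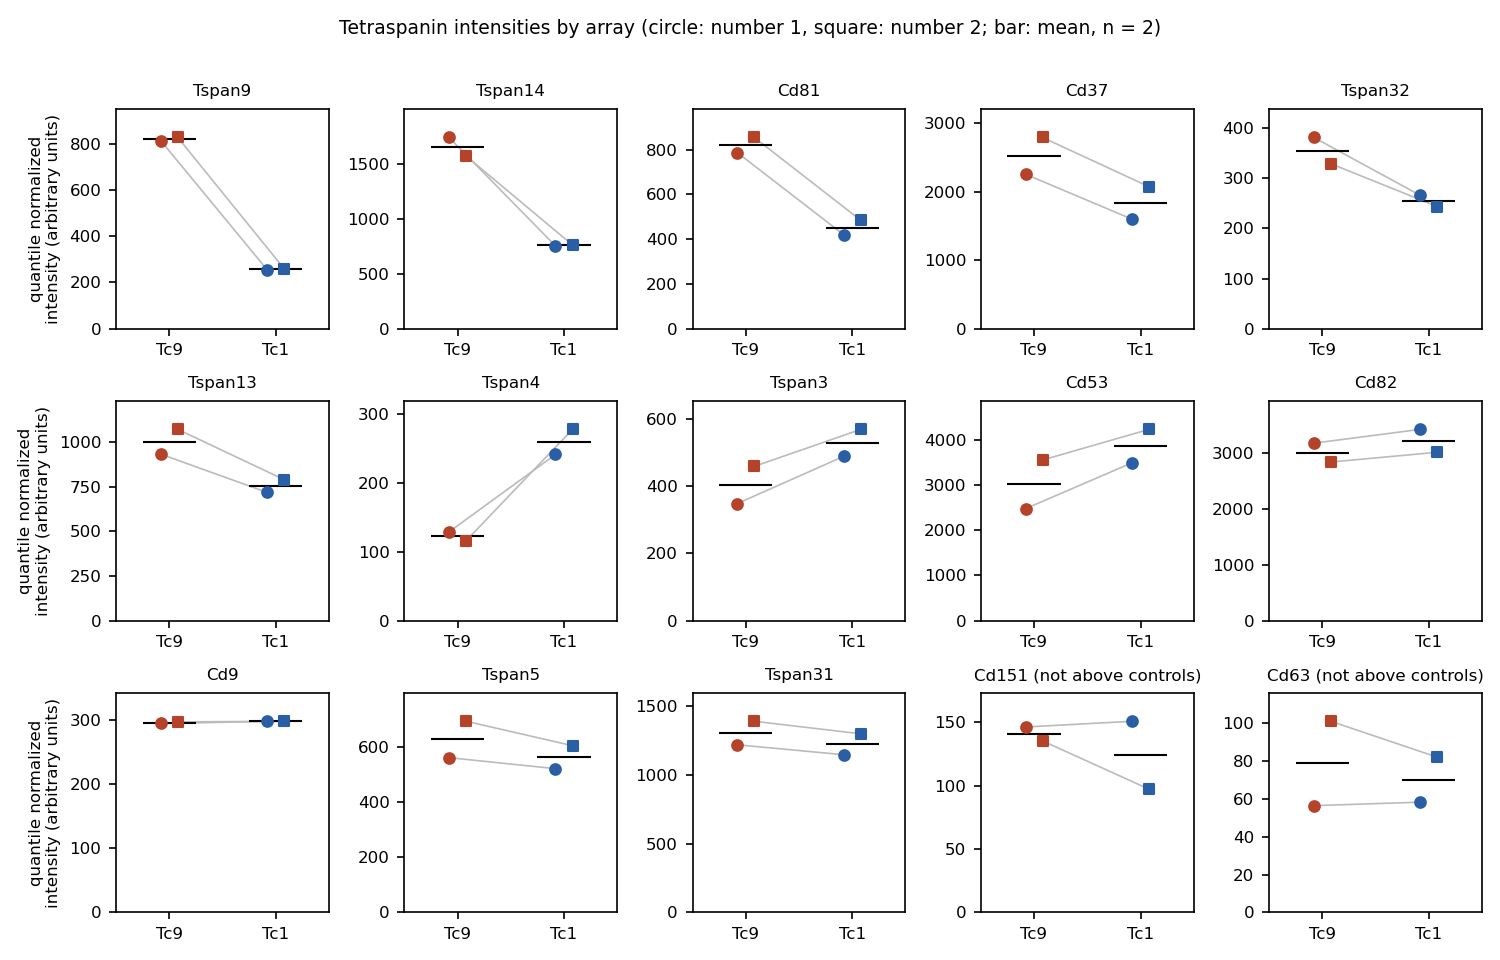
Quantile normalized intensity of 15 tetraspanins on each array, Tc9 left and Tc1 right, each panel on its own axis from 0 (circle number 1, square number 2; grey lines join arrays of the same number; bars are means of n = 2). Tspan9, Tspan14, Cd81, Cd37, Tspan32 and Tspan13 show Tc9 arrays above both Tc1 arrays, Tspan4 and Tspan3 the reverse, and Cd9 nearly level values.

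Of the remaining Tspan-named genes, Tspan4 was the member with a negative change at an unadjusted p under 0.05. Tspan4, a marker of migrasomes, the vesicles left behind by migrating cells, measured 129 and 116 in Tc9 and 242 and 278 in Tc1 cells. The Tc1 arrays were higher in both numbers, and the log2 change was -0.99 ± 0.21 (-0.83 and -1.16 within the numbers; limma adjusted p = 0.168). Both Tc9 signals lay under the negative control level, so only a bound on the fold can be given. From the mean log2 values Tc1 was at least 1.56-fold higher, taking each Tc9 array at the lowest normalized intensity above its controls. That bound makes no allowance for the spread between arrays. The 95% interval of the log2 change ran from -1.48 to -0.50. Tspan3 measured 347 and 458 in Tc9 and 488 and 568 in Tc1 cells, without overlap (log2 change -0.39, 95% interval -0.84 to 0.07).

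Tspan32, a tetraspanin of blood cells whose loss in mice makes T cells proliferate more, measured 382 and 329 in Tc9 and 266 and 244 in Tc1 cells. Its groups did not overlap, and the log2 change was 0.45 (0.50 and 0.41 within the numbers; limma adjusted p = 0.869). Tspan13 measured 933 and 1072 in Tc9 and 718 and 790 in Tc1 cells (0.40, with 0.37 and 0.43 within the numbers; limma adjusted p = 0.750). Both were higher on each Tc9 array, without passing the test. Tspan31, a gene amplified in human sarcomas, measured 1220 and 1392 in Tc9 and 1148 and 1300 in Tc1 cells, with overlapping groups (log2 change 0.09, 95% interval -0.24 to 0.43). Tspan2, Tspan6, Tspan8, Tspan11, Tspan12, Tspan18 and Tspan1 were under the negative control level on every array, and their log2 changes lay between -0.05 and 0.45.

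**Figure D3:**
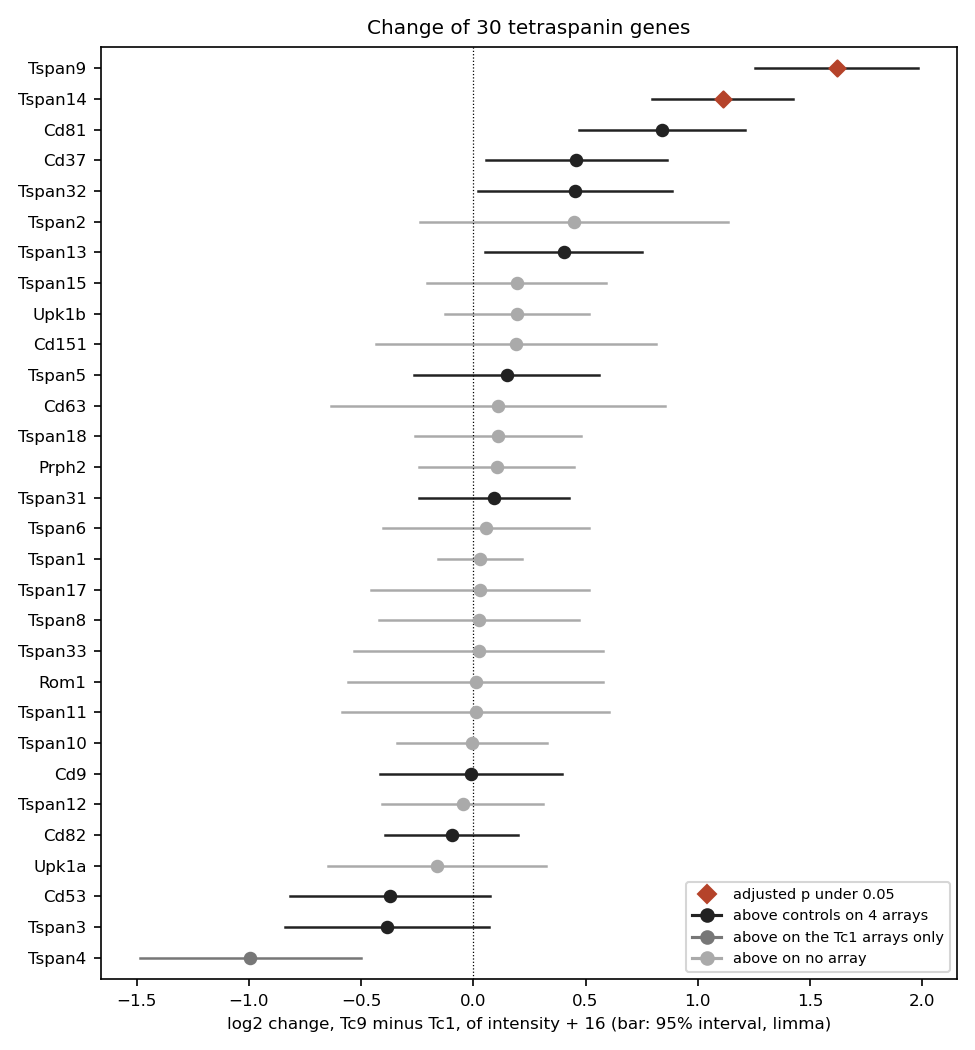
Log2 change (Tc9 minus Tc1, of intensity + 16) of the 30 tetraspanins with the 95% interval of the limma fit. Red diamonds mark Tspan9 and Tspan14, past the adjusted threshold, black points the other members above the negative controls on all 4 arrays, the darker grey point Tspan4, and light grey points members above them on none.

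The 2 numbers, which share no array, gave like differences where the signal was above background. All 12 members above background on all 4 arrays had the same sign in both numbers, against 74.8% of the 6354 such genes. Pearson's r between the numbers over these 12 members was 0.990 (Spearman's rho 0.965), a description across genes whose arrays were normalized together, against r = 0.837 over the 6354. Over the 17 members above background on no array r was 0.077, against 0.292 over the 11738 such genes. Of the 17, 6 (35.3%) kept their sign, against 53.7% of those genes.

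**Figure D4:**
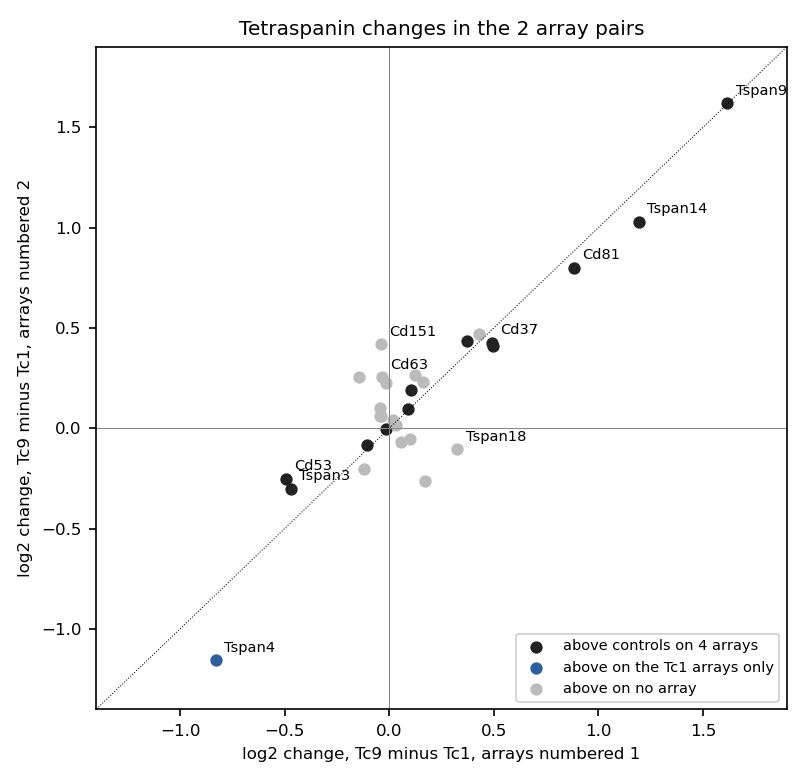
Log2 change (Tc9 minus Tc1) within the arrays numbered 1 (x axis) and numbered 2 (y axis) for each of the 30 tetraspanins, with the dotted line marking equal changes. The black points, above the negative controls on all 4 arrays, lie near the line, the blue point is Tspan4, above them on the Tc1 arrays only, and the grey points, above them on none, scatter around 0.

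Some tetraspanin genes lie beside each other on the chromosome, and their values are set side by side here. Tspan32 and Cd81 on chromosome 7, with 0 protein-coding genes between them in RefSeq, had log2 changes of 0.45 and 0.84. Tspan11 and Tspan9 on chromosome 6 are also adjacent, and there Tspan9 rose while Tspan11 was under background (0.01). Cd151 and Tspan4 on chromosome 7, with 1 protein-coding gene between them, had measured log2 changes of 0.19 and -0.99, with Cd151 under background on all 4 arrays and Tspan4 on both Tc9 arrays, so that its size is only bounded. Tspan18, under background on all 4 arrays, adjoins Cd82 on chromosome 2.

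The partners of tetraspanins were examined in 5 lists that held 62 genes, of which 60 were measured. By limma 1 of the 60 rose and 0 fell, against 0.564% of all genes called, and the unadjusted p was under 0.05 for 6 higher and 2 lower genes, against 5.28% of all genes. On the values as deposited 0 passed. The median log2 change of the 60 was 0.01. The gene that rose was Cd44, an adhesion receptor for hyaluronan that ADAM10 can shed, at 1882 and 2113 in Tc9 and 610 and 690 in Tc1 cells. Its groups were far apart (log2 change 1.60 ± 0.14, limma adjusted p = 0.00565), with 1.60 and 1.59 within the numbers.

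Cdh1 and Ptgfrn came close to the threshold. Cdh1, encoding E-cadherin, which ADAM10 also cleaves, measured 220 and 266 in Tc9 and 72.7 and 79.3 in Tc1 cells (log2 change 1.49 ± 0.23, limma adjusted p = 0.0503). Ptgfrn, an immunoglobulin-fold protein that binds CD9 and CD81 directly, measured 280 and 300 in Tc9 and 107 and 108 in Tc1 cells (1.31 ± 0.20, adjusted p = 0.0509). Both were under the negative control level on the 2 Tc1 arrays, where a level near background leaves the fold uncertain. Igsf8, a relative of Ptgfrn with the same tetraspanin partners, measured 110 and 228 in Tc9 and 131 and 202 in Tc1 cells, with overlapping groups. Igsf8 was under the negative control level on both arrays numbered 1 and above it only on those numbered 2. Its 2 Tc9 arrays spanned its whole range. In the ADAM list 1 of 10 genes rose and 0 fell (unadjusted p under 0.05: 3 higher, 0 lower), against 0.564% and 5.28% of all genes. In the list of immunoglobulin-fold and receptor partners 0 of 11 passed limma (1 higher and 2 lower unadjusted), read against the same shares of all genes, as are the lists that follow. Of these 11, 10 had a negative and 1 a positive log2 change, with a median of -0.20. Over all 19505 genes 9882 were negative, with a median of -0.0027. Both Tc9 arrays lay below both Tc1 arrays for 5 (45.5%, against 15.1% of all genes) and above them for 1 (9.09%, against 14%). Of the 11, 4 were above background on no array (Cr2, Cd4, Ifitm1 and Hbegf), and all 4 are among the negative ones.

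None of the 10 integrin partners passed limma, and the unadjusted p was under 0.05 for 2 higher genes. Itgb1, the beta1 chain bound by many tetraspanins, measured 798 and 671 in Tc9 and 881 and 855 in Tc1 cells, lower on both Tc9 arrays but with a log2 change of only -0.24 ± 0.15. Genes of exosomes and multivesicular bodies, the compartment in which CD63, CD9 and CD81 are packed into vesicles, went both ways without a call: 0 of 19 passed limma, 0 were past an unadjusted p under 0.05, and the log2 changes ran from -0.48 to 0.52 with a median of 0.02. Of 10 genes of membrane anchoring and signalling, 0 passed limma and 0 were at an unadjusted p under 0.05, with a median log2 change of 0.06.

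**Figure D5:**
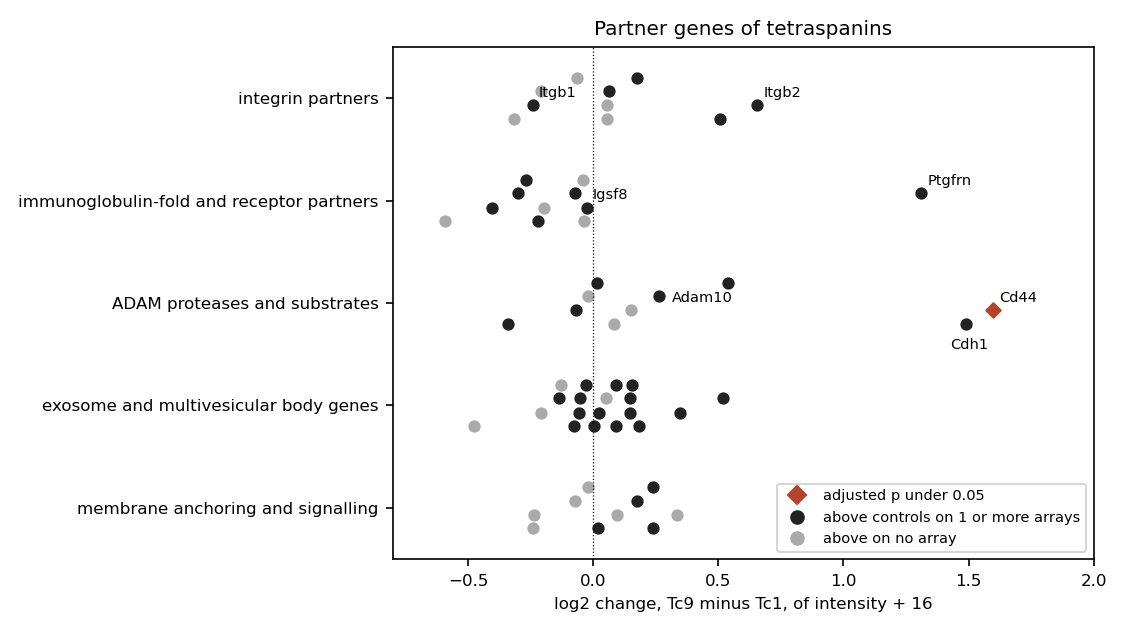
Log2 change (Tc9 minus Tc1, of intensity + 16) of each measured gene in the 5 partner lists, 1 point per gene with small vertical offsets. Cd44, the red diamond, is past the adjusted threshold, Cdh1 and Ptgfrn lie near it at 1.49 and 1.31, and the exosome list has points on both sides of 0.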

How the data were processed

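The authors deposited 1 intensity per probe set for each of 4 Affymetrix arrays (2 Tc9, 2 Tc1). Biotin labelling followed the Affymetrix protocol, per the labels' protocols. How the authors corrected background and summarized probes is not given in the sources used here. All values were positive and were taken as linear. Of 28846 probe sets, 6640 controls were left out. The other 22206 were quantile normalized, and the 19572 with a gene symbol gave 19505 genes, each represented by its brightest probe set. After adding 16 and taking log2, limma 3.58.1 in R 4.3.3 (lmFit, eBayes with an intensity trend; 2 residual and 5.09 prior degrees of freedom) compared Tc9 with Tc1. The fit was also run on simulated arrays whose noise was drawn separately for each array. Same-numbered arrays here shared deviations, so that run does not test the p-values given above. Groups and numbers came from the titles.

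All 30 members are accounted for. Array values were given for members past the threshold, for members above background whose groups did not overlap and for the members with CD names. Tspan5, Tspan31 and the genes Itga6, Gp6 and Cdh1 were named after their values were seen, as were other genes near the threshold. Members, lists, role groups and motifs were chosen with earlier results of these data known. Tspan7 is not analysed here. Alternatives were the replicate number as a block, other normalizations, pseudocounts of 1 and 64, a filter at the 25th percentile, other variance models, the mean of a gene's probe sets, and leaving out each array in turn.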

Additional observations from a re-analysis of the deposited data

How the results depend on the processing

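Tspan9 kept its direction under all alternatives run. Among the alternatives with all 4 arrays it kept its call in all but the values as deposited. Tspan14 kept its direction too. The number of tetraspanins called, 2 as reported, was 0 with the values as deposited, 1 with median centring, 1 without the intensity trend and 9 with the replicate number as a block (6 higher: Tspan9, Tspan14, Cd81, Cd37, Tspan13 and Tspan32, and 3 lower: Cd53, Tspan3 and Tspan4). The cause was not tested. Without any 1 array the number of tetraspanins called was 2 to 3. For Cd81 the limma adjusted p, 0.106 as reported, was 1.2e-19 with the block and ran from 0.0286 to 1 over its other alternatives, the highest being the values as deposited. All genes called, 110 as reported, numbered 16 as deposited (13 higher and 3 lower, against 75 and 35), 56 without the trend (37 and 19), 2674 with the block (1236 and 1438), and 186 to 274 without 1 array (120 to 167 higher, 55 to 124 lower). Partner genes called, 1 as reported, numbered 0 as deposited, 3 with a pseudocount of 1, 3 with the filter, 3 with the robust variance model, 18 with the block, and 3 to 4 without 1 array. The family's median log2 change ran between 0.0027 and 0.21 without 1 array.

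The labels do not say that a number marks a shared culture or day. Deviations from the group means correlated between same-numbered arrays across genes with r = 0.729. With 2 arrays a group both numbers give this same value, so the pairing is a hint from the data only. The block left 1 residual degree of freedom and an infinite prior. Its p-values and calls therefore rest on a variance shared along the intensity trend, not on each gene's own spread. They cannot be read as measured precision of single genes.

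Signs changed in 13 members, only when 1 array was left out, and 11 of them were not above background on all 4 arrays. The log2 changes without 1 array ran from -0.090 to 0.47 for Cd151, -0.24 to 0.46 for Cd63, -0.087 to 0.11 for Rom1, -0.15 to 0.14 for Tspan10, -0.21 to 0.24 for Tspan11, -0.23 to 0.13 for Tspan12, -0.17 to 0.23 for Tspan17, -0.13 to 0.35 for Tspan18, -0.0015 to 0.19 for Tspan31, -0.030 to 0.076 for Tspan33, -0.00067 to 0.30 for Tspan5, -0.19 to 0.30 for Tspan6 and -0.19 to 0.24 for Tspan8. With 2 arrays a group and 17 of 30 members under the negative control level, smaller changes in this family could not be measured.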
